A study of Mus musculus with 12 samples.

Results

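A set of 7 long noncoding RNAs, Malat1, Neat1, Miat, Meg3, Rian, Kcnq1ot1 and Snhg11, was followed in RNA sequencing (RNA-Seq) of mouse hippocampal neurons. They are autosomal noncoding RNAs known for nuclear functions, chosen by name as a measure of how much soma RNA reaches the neurite fraction and of the response to MG132. The choice was made with earlier results of these data known, so the share of them called is not an independent test. All 7 were found among the 27179 genes of the count tables, and all 7 passed the low-count filter, which kept 14185 genes. Of these, 370 are annotated as long noncoding RNA genes. The libraries separate somas from neurites but not nucleus from cytoplasm, so the nuclear location itself was not measured here.

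Primary neurons of C57BL/6 pups, taken on postnatal day 0 in the methods of the study, were cultured for 17 or 18 days in Transwell inserts, cups with a porous membrane through which neurites grow while the somas stay above it. The labels give C57BL/6 for all libraries, while the methods of the study also name FVB mice as a source of its hippocampal cultures. Control (Ctrl) neurons received the solvent DMSO, and MG132 neurons received 10 μM of this proteasome inhibitor for 7 h. Somas and neurites were lysed separately, which gave 4 groups of 3 libraries, Ctrl somas, MG132 somas, Ctrl neurites and MG132 neurites. The labels do not say which libraries came from separate cultures, so p-values measure the spread between these libraries, which may be technical. The cultures were not sorted, and the neurite fraction holds axons, dendrites and whatever else passes the membrane.

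Between 4247610 and 22166347 reads were counted on genes per library. The 7 RNAs together took 0.839% to 0.861% of these counts in Ctrl somas, 1.02% to 1.25% in MG132 somas, 0.163% to 0.273% in Ctrl neurites and 0.213% to 0.284% in MG132 neurites. The lowest count of any of them in any library was 62. The somas and the neurites did not overlap in this share. Malat1 alone made up 65.9% to 89.4% of the counts of the 7 in a library, so this share mostly follows Malat1. Mitochondrial genes took 9.78% to 29.2% of the counts of a library, and 1 gene, Entrez 100861531, took 12.4% to 33.4%.

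Long noncoding RNAs are transcribed by RNA polymerase II and often spliced, but they are not read as a template for protein. Several stay in the nucleus. Malat1 is a component of nuclear speckles, where splicing factors are stored. Neat1 is the scaffold of paraspeckles, bodies that hold back RNAs and RNA-binding proteins, and Miat, also called Gomafu, gathers in nuclear spots of its own in neurons. Meg3 and Rian are made from the maternal chromosome of the imprinted Dlk1 to Dio3 cluster, Kcnq1ot1 from the paternal chromosome, where it silences neighbouring genes in cis, and Snhg11 is a host of small nucleolar RNAs (snoRNAs), which are cut from its introns. RNAs held in the nucleus are often used to judge how cleanly somas and neurites were separated.

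In the RefSeq annotation of GRCm38.p6, Malat1 (Entrez 72289, chr19:5795690-5802672) and Neat1 (Entrez 66961, chr19:5824708-5845480) lie next to each other on the minus strand of chromosome 19. Miat (Entrez 330166, chr5:112213228-112228948) and Kcnq1ot1 (Entrez 63830, chr7:143213111-143296547) are on the minus strand too, and Kcnq1ot1 lies antisense inside the gene Kcnq1. On the plus strand are Meg3 (Entrez 17263, chr12:109540996-109571729), Rian (Entrez 75745, chr12:109603945-109661716) and Snhg11 (Entrez 319317, chr2:158375713-158386474). RefSeq calls all 7 long noncoding RNAs, whereas GENCODE M21 lists Snhg11 as protein coding. The exons of Miat share 30.4% of their bases with other GENCODE genes, mostly with Gm26953 on the opposite strand, against 1.20% to 8.29% in the other 6. The strand setting of the counting is not stated beyond default parameters, so reads of Miat and of that antisense gene cannot be told apart. Of the 75-base windows of the longest transcript, 4.65% in Miat and at most 0.854% in the other 6 also occur in transcripts of other genes. Kcnq1 itself had between 0 and 10 counts per library.

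The libraries were made by polyA capture, so the ends of these RNAs bear on what was captured. The mature ends of Malat1 and of the long Neat1 transcript are not made by polyadenylation. They are cut by RNase P and carry a short A-rich tract encoded in the genome, whereas the short Neat1 transcript is polyadenylated after an AATAAA signal. Shown are 60 bases of each, read from the GENCODE M21 transcripts (GRCm38, minus strand), with the A-rich tract or the AATAAA signal in capitals.
Malat1, chr19:5795982-5796041: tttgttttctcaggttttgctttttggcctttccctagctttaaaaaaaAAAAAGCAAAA
Neat1 long transcript, chr19:5824708-5824767: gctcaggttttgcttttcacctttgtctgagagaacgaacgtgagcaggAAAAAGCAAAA
Neat1 short transcript, chr19:5842307-5842366: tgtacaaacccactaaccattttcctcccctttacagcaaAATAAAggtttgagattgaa
The same 11 capital letters end the Malat1 stretch and the long Neat1 transcript. The annotated Malat1 transcript runs on past this tract. The counts are sums over all transcripts of a gene, and the short and long Neat1 transcripts, of 3004 and 20771 bases, were not counted apart.

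Levels are given as CPM (counts scaled to a fixed library total) adjusted with edgeR's trimmed mean of M values (TMM CPM), for replicates 1, 2 and 3 of a group in that order. Malat1 was the most abundant of all tested long noncoding RNA genes. Its level was 3944, 4774 and 5550 in Ctrl somas and 6995, 7576 and 6362 in MG132 somas. In neurites it was 3188, 1734 and 1457 in Ctrl and 3452, 1746 and 3580 in MG132. Each library of somas was above each library of neurites, and the MG132 somas were all above the Ctrl somas, while Ctrl and MG132 neurites overlapped.

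Neat1, the paraspeckle scaffold, was at 309, 368 and 321 TMM CPM in Ctrl somas and at 310, 166 and 222 in MG132 somas. Its level in neurites was 118, 115 and 75.8 in Ctrl and 80.3, 38.9 and 69.6 in MG132. Again every library of somas was above every library of neurites, and Ctrl and MG132 overlapped in both fractions. Miat was at 155, 58.6 and 83.6 in Ctrl somas and at 77.1, 19.4 and 46.8 in MG132 somas. Its neurite levels were 72.0, 27.2 and 24.0 in Ctrl and 19.8, 7.73 and 11.01 in MG132. The 3 MG132 neurites libraries did not overlap the Ctrl neurites, and replicate 2 of MG132 somas was as low as the highest of them.

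Of the imprinted RNAs, Meg3 was at 788, 837 and 666 TMM CPM in Ctrl somas and at 1014, 717 and 605 in MG132 somas. It was at 383, 316 and 159 in Ctrl neurites and at 325, 185 and 163 in MG132 neurites. Somas and neurites did not overlap, and Ctrl and MG132 did in both. Rian, from the same cluster, was at 84.5, 103 and 85.4 in Ctrl somas and 165, 125 and 101 in MG132 somas. Its level was 88.4, 62.6 and 38.3 in Ctrl neurites and 77.1, 52.6 and 47.8 in MG132 neurites, so that Ctrl somas and Ctrl neurites overlapped through replicate 1 of the neurites.

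Kcnq1ot1 was at 51.8, 35.8 and 30.1 TMM CPM in Ctrl somas and at 163, 149 and 76.7 in MG132 somas. It was at 54.0, 25.8 and 13.1 in Ctrl neurites and at 116, 53.2 and 55.4 in MG132 neurites. Every MG132 somas library was above every Ctrl somas library, and in neurites only replicate 1 of Ctrl reached the MG132 range. Snhg11, a snoRNA host, was at 648, 274 and 404 in Ctrl somas and 520, 193 and 289 in MG132 somas. In neurites it was at 245.8, 94.4 and 97.9 in Ctrl and 166, 54.2 and 77.6 in MG132. Replicate 1 was the highest of its group in all 4 groups for Snhg11, Miat and Kcnq1ot1, and in 1 to 3 of the 4 groups for the other 4 RNAs. The names of the deposited files give 18 days of culture for replicate 1 and 17 for replicates 2 and 3, and the part of culture time in these levels was not tested.

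**Figure D1:**
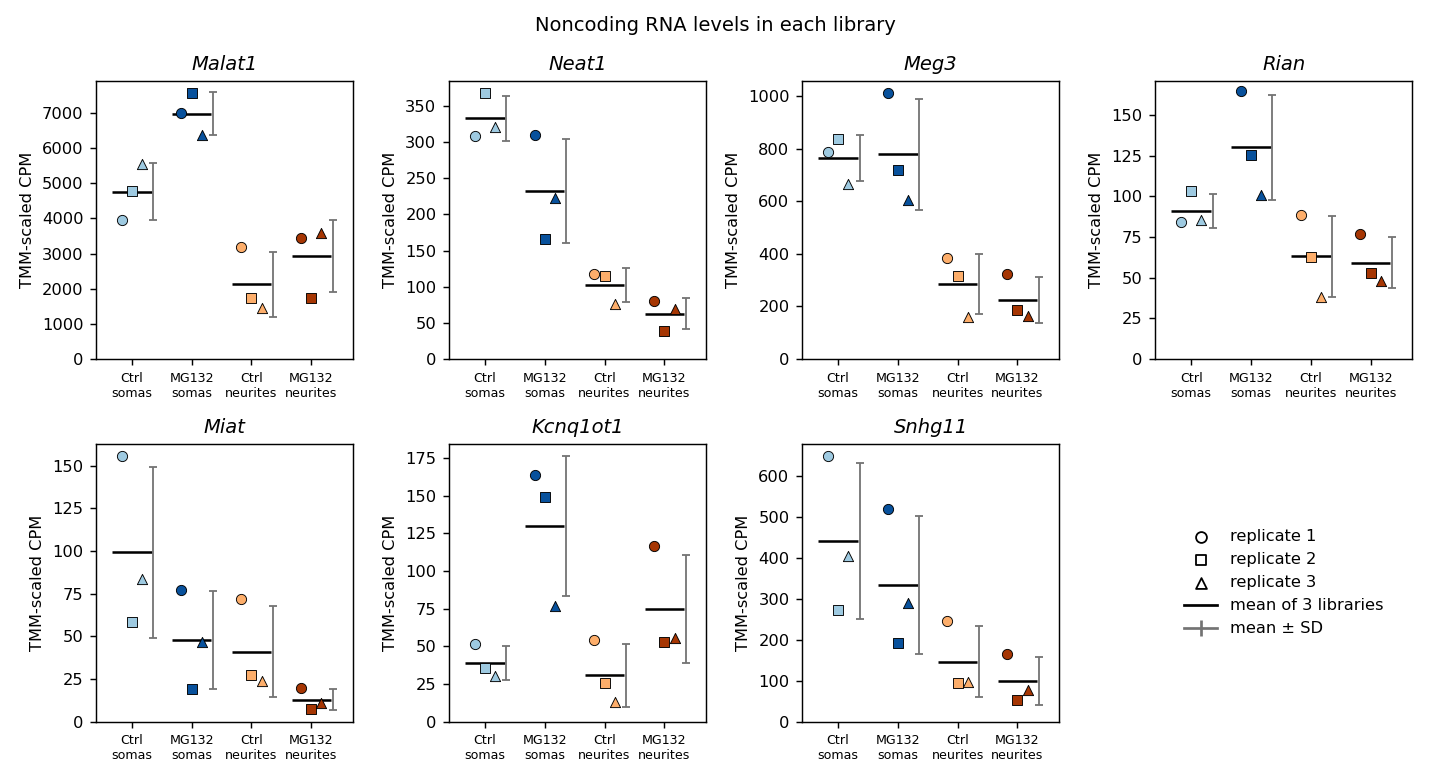
TMM CPM (y axis, from 0) of each of the 7 RNAs in the 12 libraries, by group (x axis), with marker shapes for replicates 1 to 3, a black line at the mean of 3 libraries and a grey bar for ± SD. Every neurite library of Malat1, Neat1 and Meg3 lies below every soma library, and Malat1, Meg3, Rian and Kcnq1ot1 have their highest mean in the MG132 somas.

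Per kilobase of exon, with exon lengths from GENCODE, the mean levels in Ctrl somas were ordered Malat1 (681 TMM CPM per kilobase), Snhg11 (51.8), Meg3 (42.2), Neat1 (16.02), Miat (10.7), Rian (4.99) and Kcnq1ot1 (0.422). Kcnq1ot1, a single exon of 93092 bases, had the lowest value. In Ctrl neurites the same scale gave 305 for Malat1, 17.1 for Snhg11, 15.8 for Meg3, 4.95 for Neat1, 4.42 for Miat, 3.46 for Rian and 0.333 for Kcnq1ot1, the same order. Per kilobase of the longest transcript the order turned for Rian, which was at 11.3 in Ctrl somas and 7.80 in Ctrl neurites, above Miat in both (10.8 and 4.48) and above Neat1 in neurites. Snhg11 and Meg3, neighbours in this order, were closer to each other than the SD of Snhg11 in both groups.

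The first comparison asked how far the 7 RNAs are depleted in neurites of Ctrl neurons. Neat1, Snhg11, Meg3 and Malat1 were lower in neurites than in somas, 3.24-fold, 3.04-fold, 2.67-fold and 2.24-fold. The log2 fold changes with their standard errors (SE) were -1.69 ± 0.28 for Neat1 (adjusted p = 6.14e-04), -1.60 ± 0.48 for Snhg11 (adjusted p = 0.0352), -1.42 ± 0.32 for Meg3 (adjusted p = 0.00690) and -1.16 ± 0.31 for Malat1 (adjusted p = 0.0207). These p-values are from edgeR (quasi-likelihood F test) and were adjusted for all 14185 genes, and a gene was called at an adjusted p under 0.05. Thus 4 of 7 were called lower and 0 higher, where 4.65% of all tested genes were called lower and 10.2% higher. The 3 libraries of these same 4 RNAs did not overlap between the fractions, which held in the lower direction for 15.9% of tested genes. The median log2 fold change was -1.29 over the 7 RNAs, -0.04 over all tested genes and 0.09 over the 370 long noncoding RNA genes.

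Miat, Rian and Kcnq1ot1 were not called in this fit, at -1.29 ± 0.52 (adjusted p = 0.111), -0.53 ± 0.28 (adjusted p = 0.228) and -0.37 ± 0.44 (adjusted p = 0.652). Same-numbered libraries deviated together from their group means, so the fit was repeated with the replicate number as a block. With this block Miat (-1.30 ± 0.20, adjusted p = 3.35e-05) and Rian (-0.61 ± 0.18, adjusted p = 0.0169) were called lower as well, which made 6 of 7, beside 9.28% of all tested genes. Both were lower in the neurites of 3 and 2 of the 3 same-numbered pairs. Kcnq1ot1 was not called in either fit, and its 95% interval without the block ran from -1.30 to 0.57. The neurite level expected from the fit was 30.9% of the soma level for Neat1, 32.9% for Snhg11, 37.4% for Meg3, 40.8% for Miat, 44.7% for Malat1, 69.0% for Rian and 77.5% for Kcnq1ot1. These levels moved with single libraries, and without any 1 of the 6 libraries the log2 fold change ran from -0.998 to -0.069 for Kcnq1ot1, from -0.84 to -0.34 for Rian, from -1.95 to -0.87 for Miat and from -2.20 to -1.28 for Snhg11. For these 4 the lowest estimate was the one without replicate 1 of Ctrl neurites.

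In MG132 neurons 6 of 7 were called lower in neurites, where 6.35% of all tested genes were called lower and 11.4% higher. Miat (-1.95 ± 0.54, adjusted p = 0.0211), Neat1 (-1.90 ± 0.28, adjusted p = 2.76e-04) and Meg3 (-1.80 ± 0.32, adjusted p = 0.00129) were 3.87-fold, 3.73-fold and 3.48-fold lower. Snhg11 (-1.76 ± 0.48, adjusted p = 0.0202), Malat1 (-1.25 ± 0.31, adjusted p = 0.0122) and Rian (-1.14 ± 0.28, adjusted p = 0.00992) were 3.39-fold, 2.38-fold and 2.21-fold lower. Kcnq1ot1 was at -0.80 ± 0.43 (adjusted p = 0.226). It was called with the replicate block, at -0.82 ± 0.21 (adjusted p = 0.00404), and on total counts, at -1.62 (adjusted p = 0.00337), the first beside 11.7% of tested genes called lower in that fit. The 3 libraries did not overlap for 5 of the 7, Malat1, Neat1, Meg3, Rian and Snhg11, as for 17.9% of tested genes in that direction. The median over the 7 was -1.76, against -0.08 over all tested genes and -0.07 over the long noncoding RNA genes. The Ctrl and MG132 comparisons use different libraries, and the difference between them is the interaction term described below.

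**Figure D2:**
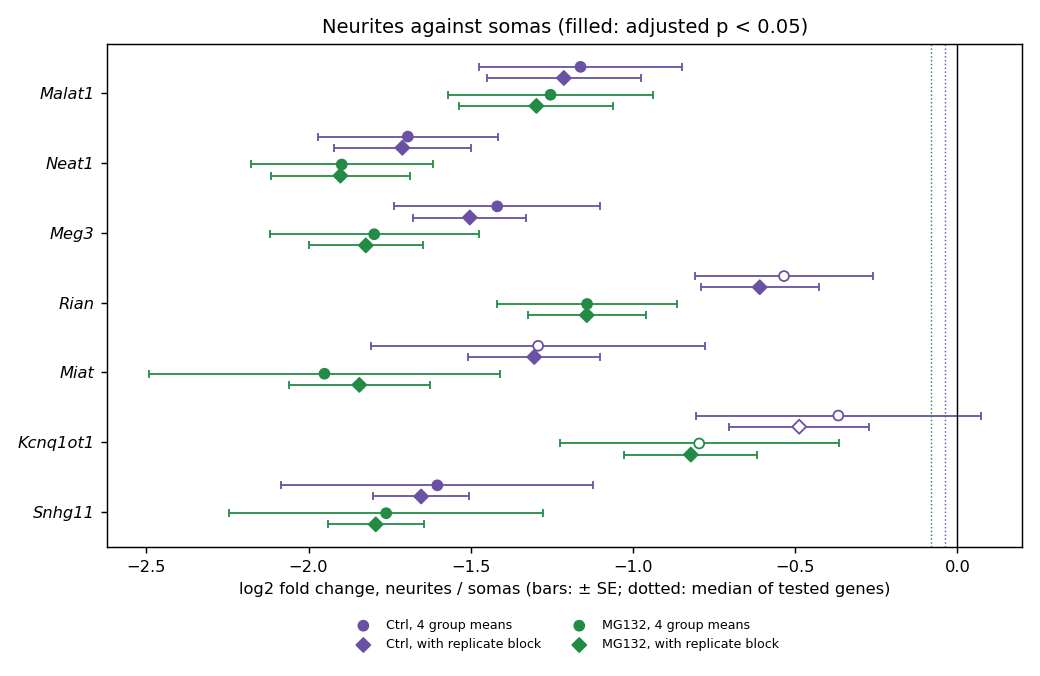
Log2 fold change of neurites against somas (x axis) for each RNA (y axis) in Ctrl and MG132 neurons, from the model of 4 group means (circles) and with the replicate number as a block (diamonds). Bars are ± SE, filled symbols have an adjusted p under 0.05 and dotted lines mark the median of all tested genes. All estimates lie below 0, and those of Kcnq1ot1 in Ctrl neurons are open in both fits.

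The size of these differences depends on how the fractions are scaled. The TMM factors were 1.18 to 1.44 in somas and 0.567 to 0.999 in neurites, and without them the median log2 fold change of all tested genes shifted to -0.70 in Ctrl and -0.86 in MG132 neurons. On total counts all 7 RNAs were called lower in Ctrl neurites, from -1.15 for Kcnq1ot1 (adjusted p = 0.0382) to -2.40 for Snhg11, while over all genes 323 were called higher and 2741 lower, against 1452 and 659 with TMM. In MG132 neurons these counts were 300 and 4340, against 1615 and 901. Relative to the shifted medians, the median of the 7 stayed lower, at -2.09 in Ctrl and -2.62 in MG132 neurons.

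Some calls rested on single libraries. Without replicate 3 of Ctrl somas, or replicate 2 or 3 of Ctrl neurites, Malat1 was at -1.10, -1.03 and -1.02 and lost its call in Ctrl neurons (adjusted p = 0.0632, 0.0755 and 0.0761). Snhg11 lost it without replicate 1 or 3 of Ctrl somas (adjusted p = 0.141 and 0.0603) and without replicate 2 or 3 of Ctrl neurites (adjusted p = 0.119 and 0.128). Miat gained a call without replicate 1 of Ctrl neurites, at -1.95 (adjusted p = 0.0277). In MG132 neurons replicate 1 of the somas and replicate 3 of the neurites were each needed for the calls of Rian (adjusted p = 0.0732 and 0.0698 without them), Miat (0.128 and 0.0859) and Snhg11 (0.126 and 0.0976), and replicate 2 of the neurites for those of Miat (0.0939) and Snhg11 (0.0835). Neat1 and Meg3 kept their calls in both comparisons without any single library.

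RNAs known from neurites were set beside them. Bc1, a short cytoplasmic RNA transported into dendrites, was 164 ± 41.4 TMM CPM in Ctrl neurites and 13.0 ± 4.19 in Ctrl somas (SD, n = 3), a log2 fold change of 3.65 ± 0.28 (SE, adjusted p = 1.36e-06). In a list of 14 mRNAs described as dendritic, 4 were called higher in Ctrl neurites and 0 lower, beside 10.2% and 4.65% of all tested genes, with a median of 0.73, and Map2, Kif5a, Eef2 and Shank3 were these 4. Camk2a, a kinase subunit of the postsynaptic density, was at 1.34 (adjusted p = 0.104). With the replicate block 8 of the 14 were called higher, beside 13.7% of all tested genes. In MG132 neurons 3 of the 14 were called higher (11.4% of all tested genes), and 7 with the block (15.1%).

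The second comparison asked how the 7 RNAs respond to MG132. In a list of 6 stress-response mRNAs known to rise with proteasome inhibition, 6 of 6 rose in both fractions. Their medians were 4.27 in somas and 3.53 in neurites on the log2 scale. The study itself reports Hspa1a and Hspa8 as raised by MG132 in both fractions, so this was no independent check of the labels. In somas Kcnq1ot1 rose 3.29-fold, a log2 fold change of 1.72 ± 0.44 (adjusted p = 0.00934), and it was higher in 3 of 3 same-numbered pairs. In the model of 4 group means it was the one call among the 7, 1 higher and 0 lower, where 15.5% of all tested genes were called higher and 11.9% lower. Malat1 was at 0.55 ± 0.31 (adjusted p = 0.207) and Rian at 0.51 ± 0.27 (adjusted p = 0.179). Meg3 was at 0.03 ± 0.31 (adjusted p = 0.958), with a 95% interval from -0.64 to 0.69. Snhg11, Neat1 and Miat were at -0.40 ± 0.47, -0.51 ± 0.27 and -1.05 ± 0.51 (adjusted p = 0.564, 0.175 and 0.142), and Miat was called without the low-count filter, at -1.03 (adjusted p = 0.0298). The 3 libraries did not overlap for Malat1 and Kcnq1ot1, both higher in MG132, as for 23.2% of tested genes in that direction, and for 0 of the 7 in the other direction, which held for 22.7%.

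The replicate block changed 4 of these calls in somas. With it Miat fell, by 1.09 on the log2 scale (SE 0.20, adjusted p = 1.55e-04), as did Neat1, by 0.56 (SE 0.20, adjusted p = 0.0337), and Snhg11, by 0.44 (SE 0.14, adjusted p = 0.0192). Rian rose by 0.47 (SE 0.18, adjusted p = 0.0422), and Kcnq1ot1 stayed called at 1.6999 ± 0.21 (adjusted p = 1.23e-06). In that fit 2 of the 7 were called higher and 3 lower, beside 19% and 17.4% of all tested genes. Malat1 and Meg3 were not called in either fit.

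In neurites Kcnq1ot1 rose 2.44-fold, at 1.29 ± 0.44 (adjusted p = 0.0432), and Miat fell 3.26-fold, at -1.704 ± 0.54 (adjusted p = 0.0303). Kcnq1ot1 was higher, and Miat lower, in 3 of 3 same-numbered pairs. These were the 2 calls among the 7, where 14.7% of all tested genes were called higher and 12.3% lower. Neat1 was at -0.72 ± 0.28 (adjusted p = 0.0660), Snhg11 at -0.56 ± 0.47 (adjusted p = 0.409), Meg3 at -0.35 ± 0.31 (adjusted p = 0.436), Rian at -0.09 ± 0.28 (adjusted p = 0.835) and Malat1 at 0.46 ± 0.31 (adjusted p = 0.295). The libraries did not overlap for Miat alone, as for 20.4% of tested genes in that direction. With the replicate block Neat1 fell by 0.76 (SE 0.21, adjusted p = 0.00746) and Snhg11 by 0.58 (SE 0.15, adjusted p = 0.00337), so that 1 of the 7 was called higher and 3 lower, beside 17.7% and 18.1% of tested genes. Kcnq1ot1 was then at 1.37 ± 0.22 (adjusted p = 2.80e-05) and Miat at -1.63 ± 0.22 (adjusted p = 3.16e-06).

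**Figure D3:**
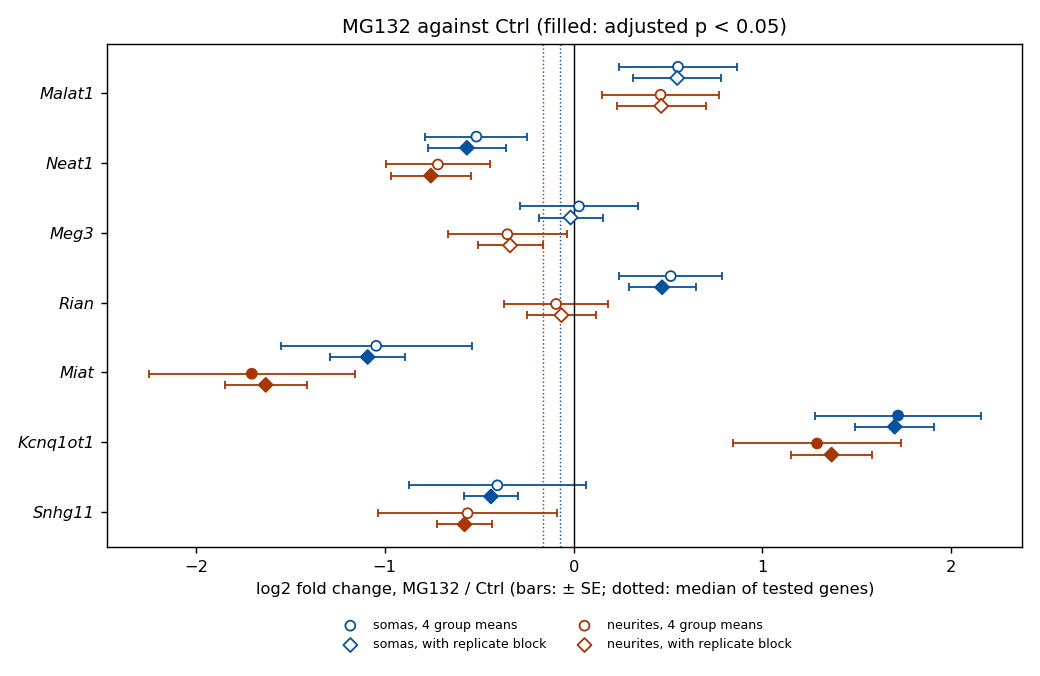
Log2 fold change of MG132 against Ctrl (x axis) for each RNA (y axis) in somas and neurites, from the model of 4 group means (circles) and with the replicate number as a block (diamonds), with bars for ± SE, filled symbols at an adjusted p under 0.05 and dotted lines at the median of all tested genes. Kcnq1ot1 lies right of 0 and Miat left of it in both fractions, and Neat1 and Snhg11 are filled with the block alone.

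Malat1 and Neat1 in neurites passed the threshold when 1 library was left out, Malat1 at 0.87 (adjusted p = 0.0481) without replicate 1 of Ctrl and Neat1 at -0.93 (adjusted p = 0.0421) without replicate 1 of MG132. Neat1 was also called lower on total counts, at -0.94 (adjusted p = 0.0447), with DESeq2, at -0.73 (adjusted p = 0.0489), and with at least 10 counts in every library, at -0.82 (adjusted p = 0.0331). Without the block, the neurite calls of Kcnq1ot1 and Miat were lost when some single libraries were left out. Kcnq1ot1 was at 1.18, 1.05 and 0.84 (adjusted p = 0.120, 0.109 and 0.198) without replicate 2 of Ctrl, replicate 3 of Ctrl or replicate 1 of MG132 neurites. It was at 1.92 (adjusted p = 0.00645) without replicate 1 of Ctrl neurites, its highest Ctrl library. Miat was at -1.05, -1.40 and -1.49 (adjusted p = 0.176, 0.115 and 0.124) without replicate 1 of Ctrl, replicate 2 of MG132 or replicate 3 of MG132 neurites. In somas Kcnq1ot1 stayed called without any single library, at 1.51 to 1.996, and lost its call only when replicate 2 was left out of all groups at once (adjusted p = 0.106).

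At an adjusted p under 0.01 and a change beyond 1.7-fold, 1 of the 7 was called higher in MG132 somas (9% of tested genes, with 5.58% lower) and 0 in MG132 neurites (9.25% higher and 5.44% lower). In neurites against somas 2 were then called lower in Ctrl neurons (1.28% of tested genes, with 6.15% higher) and 3 in MG132 neurons (2.08%, with 6.92% higher). With a log2 fold change beyond 1.7 in place of 1.7-fold, Kcnq1ot1 was still called higher in MG132 somas (2.11% higher and 2.43% lower) and 0 of the 7 in MG132 neurites (2.44% and 2.19%). In neurites against somas that rule called 0 lower in Ctrl neurons (0.338%, with 2.12% higher) and 2 in MG132 neurons (0.508%, with 2.04% higher).

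A ratio of 2 RNAs within a library needs no scaling, so each RNA was also set against 1000 Malat1 counts of its own library. Neat1 was at 78.4, 77.1 and 57.9 per 1000 Malat1 counts in Ctrl somas and at 44.3, 21.96 and 34.9 in MG132 somas. In neurites it was at 37.1, 66.1 and 52.0 in Ctrl and 23.3, 22.3 and 19.4 in MG132. MG132 and Ctrl did not overlap in either fraction. Kcnq1ot1 was at 13.1, 7.50 and 5.43 in Ctrl somas and 23.4, 19.7 and 12.1 in MG132 somas, with medians of 14.9 and 30.4 in Ctrl and MG132 neurites. Its Ctrl and MG132 libraries overlapped in both fractions. Miat had medians of 15.1 and 7.35 in Ctrl and MG132 somas and of 16.5 and 4.43 in Ctrl and MG132 neurites, with no overlap in either fraction. Snhg11 and Meg3 did not overlap in neurites and did in somas, and Rian overlapped in both. The share of all tested genes without overlap on this ratio was not counted. Between the fractions of Ctrl neurons, the medians of Miat (15.1 in somas and 16.5 in neurites) and Snhg11 (72.7 and 67.2) differed little, and that of Kcnq1ot1 was higher in neurites (7.50 and 14.9), with libraries that overlapped. The median of Rian was 21.4 in somas and 27.7 in neurites, with no overlap, and those of Neat1 (77.1 and 52.0) and Meg3 (175 and 120) were lower in neurites, with libraries that overlapped. The ratios show unequal change of 2 RNAs and do not say which of them changed.

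The difference between the MG132 responses of neurites and somas was tested by the interaction term. It was negative for all 7 RNAs, from -0.66 ± 0.73 for Miat and -0.61 ± 0.39 for Rian to -0.09 ± 0.44 for Malat1, with adjusted p-values of 0.830 to 0.992, and it was negative for 7488 of all 14185 tested genes. None was called. The sign turned under 8 of 22 alternatives for Malat1, 6 for Snhg11, 3 for Neat1 and 1 for Kcnq1ot1. Of all 14185 genes edgeR called 0 without the block, 1000 had an unadjusted p under 0.05, and DESeq2 called 48 higher and 24 lower. With the block, 0.331% of tested genes were called higher and 0.303% lower, and 0 of the 7 RNAs. The 95% interval for Kcnq1ot1 ran from -1.74 to 0.88, so a difference of responses was not detectable at this spread.

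Kcnq1ot1 was the RNA of the 7 that rose in both fractions, and its promoter is shown with the motifs of stress-responsive factors marked. From RefSeq (GRCm38.p6) 7 promoter windows of 300 bases, 250 before and 50 after a start, matched 6 of the 7 RNAs, 2 of them for Meg3. They were searched on both strands for GAANNTTC, a part of the heat shock element, TGATGNAAN, an element of ATF4 and C/EBP, TGACNNNGC, an antioxidant response element, and TGACGTCA, the cyclic AMP response element. The Kcnq1ot1 window is read on the minus strand. Capitals mark its one match, to TGACNNNGC on the opposite strand, which starts 46 bases before the start site.
Kcnq1ot1, chr7:143296498-143296797: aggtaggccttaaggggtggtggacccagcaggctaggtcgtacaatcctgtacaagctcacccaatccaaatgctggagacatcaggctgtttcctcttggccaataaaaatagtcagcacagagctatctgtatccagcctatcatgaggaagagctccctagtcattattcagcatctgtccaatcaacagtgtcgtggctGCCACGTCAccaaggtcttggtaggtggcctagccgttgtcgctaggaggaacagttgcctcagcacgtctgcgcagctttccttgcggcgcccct
This motif occurs in 12.4% of the 32851 promoter windows of the table. Meg3 held TGACGTCA 57 bases before 1 of its starts (1.79% of windows hold it), and Rian held GAANNTTC 102 bases before its start (7.86%). TGATGNAAN, which 3.95% of windows hold, and the other motifs were not found in the windows of Malat1, Miat and Snhg11. A match is a run of letters and not a site shown to be bound.

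Among 42 other noncoding RNAs that were tested, 11 were called higher and 5 lower with MG132 in somas, and 9 higher and 4 lower in neurites, with medians of 0.40 and 0.18. Of all tested genes, 15.5% were higher and 11.9% lower in somas and 14.7% and 12.3% in neurites. With the replicate block 9 were called lower in neurites, beside 18.1% of all tested genes. Of the snoRNA hosts among them, Gas5, Snhg1, Snhg5, Snhg6, Snhg12, Snhg15, Snhg16, Snhg17 and Zfas1 rose in both fractions, while Snhg18 fell in somas (-5.16, adjusted p = 0.00801), where its mean was 2.76 TMM CPM in Ctrl and 0.0410 in MG132. Snhg4, Snhg7, Snhg8, Snhg14 and Snhg20 were not called with MG132 in either fraction, with or without the block. The other 2 calls higher in somas were Mirg (2.93, adjusted p = 0.00396) and Epb41l4aos (2.46, adjusted p = 0.0184). In somas Gas5 rose from 49.6 ± 0.864 to 195 ± 33.6 TMM CPM, and in neurites it went from 157.9 ± 19.998 to 490 ± 8.45 (SD, n = 3; adjusted p = 2.85e-06 and 1.01e-05). Snhg1 rose from 5.74 to 66.3 TMM CPM in somas, with 5.40 and 109 as its neurite means (adjusted p = 2.38e-06 and 7.36e-07), and Snhg5 had means of 6.65 and 38.1 in Ctrl and MG132 somas and 7.54 and 59.2 in neurites (adjusted p = 1.33e-05 and 2.65e-06). Snhg11 is a snoRNA host too, and its estimates were below 0 in both fractions, as were those of Snhg4, Snhg18 and Snhg20. GENCODE also places snoRNAs inside Rian on the same strand. Rian was at 0.51 in somas and -0.09 in neurites, not called in either, and with the block it was called higher in somas (adjusted p = 0.0422). Firre, a nuclear RNA of the X chromosome, fell in somas by 0.81 (adjusted p = 0.0474), and Norad and Oip5os1, cytoplasmic RNAs, fell in neurites by 0.87 and 0.76 (adjusted p = 0.00426 and 0.0112). Over the 370 long noncoding RNA genes, 21 were called higher and 55 lower in somas and 15 higher and 41 lower in neurites, with medians of -0.72 and -0.87.

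**Figure D4:**
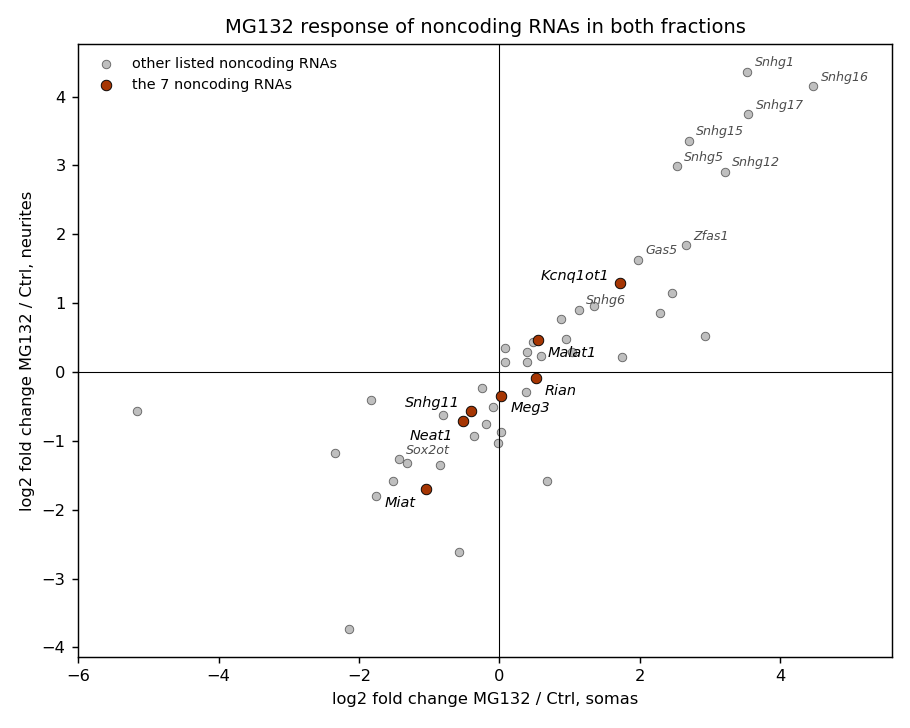
Log2 fold change of MG132 against Ctrl in somas (x axis) and in neurites (y axis) for the 7 noncoding RNAs (filled) and 42 other listed noncoding RNAs (grey), with grey names for those called in both fractions. Gas5, Snhg1 and further snoRNA hosts lie at the upper right, while Snhg11 lies below 0 on both axes, as do the hosts Snhg4, Snhg18 and Snhg20.

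In neurites against somas, 9 of these 42 were called higher and 2 lower in Ctrl neurons, and 7 higher and 4 lower in MG132 neurons, beside 10.2% and 4.65% and then 11.4% and 6.35% of all tested genes. The block gave 11 higher and 4 lower in Ctrl neurons, beside 13.7% and 9.28% of all tested genes. In MG132 neurons it gave 11 higher and 6 lower, beside 15.1% and 11.7%. In Ctrl neurons Gas5 (1.67), Norad (1.16), Oip5os1 (1.28) and Bc1 were among those higher in neurites. The 2 lower ones were Firre, a nuclear RNA (-1.63, adjusted p = 0.00145), and Peg13, an imprinted RNA (-0.97, adjusted p = 0.0433). In MG132 neurons Gas5 (1.33), Bc1 (2.98) and Oip5os1 (0.71) were higher and Mirg (-2.29), Peg13 (-1.53), Firre (-1.45) and Tug1 (-0.97) were lower (adjusted p = 0.0221, 0.00329, 0.00354 and 0.00241). Of all 370 long noncoding RNA genes, 26 (7.03%) were called higher and 9 (2.43%) lower in Ctrl neurites, where 10.2% and 4.65% of all tested genes were, and 4 of the 9 were Malat1, Neat1, Meg3 and Snhg11.

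The mRNAs of proteins that share the bodies of Malat1 and Neat1 were counted from fixed lists, beside 15.5% of all tested genes called higher and 11.9% lower in somas and 14.7% and 12.3% in neurites. Of 20 nuclear speckle protein mRNAs, 13 rose and 1 fell with MG132 in somas, and 15 rose and 1 fell in neurites, with medians of 0.73 and 1.05. Srrm2, a core scaffold of speckles, rose by 0.47 in somas and 0.86 in neurites, the splicing factor mRNA Sf3b1 by 0.72 and 1.16, Rbm39 by 1.05 and 1.82 and Rbm25 by 0.81 and 1.44. Pnisr was the 1 that fell, at -0.60 and -0.74. Of 22 paraspeckle protein mRNAs, 5 rose and 1 fell in each fraction, with medians of 0.34 and 0.47. With the block 6 rose and 2 fell in somas, and 8 rose and 2 fell in neurites. That fit called 19% of all tested genes higher and 17.4% lower in somas, and 17.7% and 18.1% in neurites. Taf15, an RNA-binding protein, rose from 47.6 to 136 TMM CPM in somas, with neurite means of 112 and 343, and Zc3h6 fell. The paraspeckle core proteins Nono, Sfpq and Pspc1 were not called in either fraction without the block, and with it Nono (0.59, adjusted p = 0.00764) and Sfpq (0.46, adjusted p = 0.0160) rose in neurites. Of 5 mRNAs known for detained introns, Clk4 and Clk2 rose and Ogt fell in both fractions, and Clk1 rose in neurites. With the block 3 rose and 2 fell in each fraction, beside 19% and 17.4% of all tested genes in somas and 17.7% and 18.1% in neurites.

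Genes beside the imprinted RNAs and beside Malat1 and Neat1 were counted next, against the same shares of all genes. Of 7 tested genes around Meg3 and Rian, 2 rose with MG132 in somas, Wars, a tryptophanyl-tRNA synthetase (1.14), and the noncoding RNA Mirg (2.93), and 0 fell. In neurites 2 rose, Wars (1.22) and Rtl1 (3.85), and Ppp2r5c fell by 0.91. Rtl1 had a mean of 0.0561 TMM CPM in Ctrl neurites and 1.02 in MG132 neurites, and with the replicate block it was not called (adjusted p = 0.0526). Of 5 around Kcnq1ot1, Cars, a cysteinyl-tRNA synthetase, rose by 2.52 in somas and 2.69 in neurites, and Cd81, a tetraspanin, fell by 0.95 and 0.83, with Tssc4 lower in neurites as well (-1.25) and, with the block, in somas (-0.83, adjusted p = 0.0223). Cdkn1c, a growth inhibitor that Kcnq1ot1 is known to silence, was at 0.00 in somas and -0.17 in neurites (adjusted p = 0.9996 and 0.917), at 1.11 to 1.75 TMM CPM in the 4 groups. Of 10 tested neighbours of Malat1 and Neat1, 2 rose in somas and 1 in neurites, and Dpf2 was among them in both (0.88 and 0.84). With the block Ltbp3 fell in neurites (-0.63, adjusted p = 0.0222).

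For each RNA, the tested genes with the most similar profile were found as the smallest root-mean-square (RMS) distance between log2 CPM values over the 12 libraries, each centred on its mean. Nearest to Malat1 was Arfgef3 (0.29), to Neat1 Spock1 (0.27) and then Xist (0.28), to Meg3 Slc4a10 (0.19) and to Rian Polrmt (0.22). Nearest to Miat was Rnf112 (0.27), to Snhg11 Dagla (0.22) and to Kcnq1ot1 Mamld1 (0.34). After these came Ets2 and Eml5 for Malat1, Cacna1e for Neat1, Grin1 and Clstn3 for Meg3, Tubgcp6 and Bbs4 for Rian, Sprn and Epha4 for Miat, Sv2b and Slc12a5 for Snhg11 and Dusp8 and Dot1l for Kcnq1ot1. Among the 7 themselves, Neat1 and Meg3 were nearest (0.39), and Miat and Kcnq1ot1 farthest apart (1.62).

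Markers of the cells in these cultures were summed in each library. Their counts are read beside the shares of all tested genes called lower with MG132, 11.9% in somas and 12.3% in neurites (17.4% and 18.1% with the block). Between neurites and somas 4.65% of all tested genes were called lower and 10.2% higher in Ctrl and 6.35% and 11.4% in MG132 neurons, and 9.28% and 11.7% lower with the block. The summed level of 13 neuron markers was 1567, 1156 and 1044 TMM CPM in Ctrl somas, 1359, 892 and 927 in MG132 somas, 1745, 1202 and 962 in Ctrl neurites and 1526, 855 and 989 in MG132 neurites. Map2 was the most abundant, and of the 13, 1 was called lower with MG132 in each fraction and 0 higher (2 and 3 lower with the block). In neurites against somas 12 of the 13 had an estimate below 0 and Map2 one above, with medians of -0.44 in Ctrl and -0.74 in MG132 neurons, and 1 and 3 were called lower (5 in each with the block). Most neuron markers thus had estimates on the same side as those of the 7 RNAs, and their part in the neurite depletion was not tested. Replicate 1 had the highest sum in all 4 groups, as Snhg11, Miat and Kcnq1ot1 did, and the part of the neuron share in their levels was not tested.

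Astrocyte markers, led by Gfap, summed to 5401, 6110 and 4911 TMM CPM in Ctrl somas and to 2711, 3346 and 2546 in MG132 somas. In Ctrl neurites they summed to 21441, 26196 and 21028 and in MG132 neurites to 12321, 19945 and 9741, so the sum was higher in neurites and lower with MG132. Gfap had a mean of 17794 TMM CPM in Ctrl neurites and carried most of that sum, while over the 10 markers 4 were called higher and 1 lower in Ctrl neurites, with a median of -0.0083, and 5 and 1 in MG132 neurites, with a median of 0.73. The block gave 4 higher and 1 lower in Ctrl neurites, and 7 and 2 in MG132 neurites. With MG132, 8 of 10 were called lower in somas and 5 of 10 in neurites (10 and 8 with the block). Oligodendrocyte lineage markers, led by Mbp, were 3366, 1637 and 6764 in Ctrl somas, 1764, 559 and 6170 in MG132 somas, 13605, 5231 and 22380 in Ctrl neurites and 6883, 2951 and 16148 in MG132 neurites. Of these 10, 5 were called lower with MG132 in each fraction, and 9 and 10 with the block. Mbp had means of 1542 TMM CPM in Ctrl somas and 11394 in Ctrl neurites and carried most of the neurite sums, while over the 10 markers the median in neurites against somas was 0.057 in Ctrl and -0.047 in MG132 neurons, with 1 called higher in Ctrl, 0 in MG132 and 0 lower in both. The block gave 2 higher and 0 lower in Ctrl neurites, and 1 higher and 2 lower in MG132 neurites. It called 13.7% and 15.1% of all tested genes higher in these 2 comparisons.

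Microglia markers, led by C1qa, summed to 742, 981 and 914 TMM CPM in Ctrl somas and 231, 442 and 263 in MG132 somas. They were 787, 859 and 1494 in Ctrl neurites and 135, 297 and 345 in MG132 neurites. With MG132, 5 of 10 were called lower in somas and 9 of 10 in neurites (10 in each with the block). Fibroblast and vessel markers, led by Col3a1, summed to 253, 283 and 209 in Ctrl somas, 99.2, 80.7 and 77.2 in MG132 somas, 118, 88.7 and 59.9 in Ctrl neurites and 42.2, 55.0 and 36.9 in MG132 neurites, and of 8 tested, 6 were called lower with MG132 in somas and 4 in neurites. In neurites against somas 8 of these 8 had estimates below 0 in Ctrl neurons (median -1.45, 4 called lower) and 7 in MG132 neurons (median -0.99, 1 called lower and 4 with the block), on the same side as the 7 RNAs, and their part in the neurite depletion was not tested. No astrocyte, oligodendrocyte lineage or microglia marker was at 0 in any library, whereas the endothelial marker Cldn5 was at 0 in 11 of 12. Fewer cells of a type and less RNA per cell cannot be told apart in these bulk libraries, and the part of glial RNA in the levels of the 7 RNAs was not tested.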

How the data were processed

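RNA-Seq counts per gene were analysed in 12 libraries of mouse hippocampal neurons. Per the labels and the study's methods, the authors trimmed reads with Trimmomatic 0.38.0, aligned them single-end to mm10 with STAR, and counted reads per gene with featureCounts 2.0.1 at default parameters. The deposited values are these whole-number counts, with no normalization, and genes are listed by Entrez identifier. Symbols came from RefSeq (GRCm38.p6) for 25275 of 27179 genes, or 93.0%. The members and the gene lists were chosen with earlier results of these data known.

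Counts were filtered with filterByExpr, scaled with TMM factors and fitted in edgeR 4.0.16 (R 4.3.3) as 4 group means over 12 libraries, with quasi-likelihood tests and Benjamini-Hochberg adjustment. SE was the absolute log2 fold change over the square root of F. The fit was checked on simulated data. In the 4 group comparisons it recovered 0% to 16.7% of genes given a log2 change of 1, with 0% and 0.503% for neurites against somas. At a log2 change of 2 it recovered 72.9% to 77%, and for the interaction 1% and 51.5% at changes of 1 and 2. The simulation changed 200 genes and left all others equal, whereas the 4 group comparisons of the data called 14.9% to 27.5% of genes. With few changed genes the adjustment is stricter, so these shares do not give the recovery in the real data. Named genes were the 7 RNAs with 3 nearest profiles each and, per list, up to 4 called genes of highest mean CPM, plus genes discussed for their known role or direction, named after their values were seen. Some genes of the lists are not reported here by name. Same-numbered libraries of the groups compared deviated together from the group means (mean correlation 0.176 over 18 pairs, against -0.0879 for other numbers, and each over 0.1 within the 4 comparisons), so the numbers were taken as pairs. Alternatives were DESeq2 1.42.0, other scalings, filters, thresholds and samples, the replicate block, and leaving out libraries.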

Additional observations from a re-analysis of the deposited data

How the results depend on the processing

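Of 630 estimates for single RNAs under the alternatives, 539 kept their direction and side of the threshold, 39 lost and 22 gained a call, and 30 changed sign, where the cause was not tested. The replicate block raised the RNAs called with MG132 to 2 higher and 3 lower in somas and to 3 lower in neurites, and changed no call of the 7 beyond those given in the report. With MG132 in somas, 1 RNA was called lower without a low-count filter, beside 1774 of all 20595 genes tested there. Leaving out libraries gave 0 to 1 higher, beside 1266 to 1941 of all genes, with 14230 to 14771 genes tested in fits without libraries. In neurites 0 were called higher with at least 10 counts in every library, with only the groups compared, and under both stricter thresholds (0 lower too), and 2 lower on total counts, with DESeq2 and with at least 10 counts, while leaving out libraries gave 0 to 2 in each direction. Of all genes, 1789 of 9597 were higher with at least 10 counts and 1893 of 12655 with only the groups compared. Lower were 1336 of 14185 on total counts, 2316 of 14185 with DESeq2 and 1862 of 9597 with at least 10 counts. Leaving out libraries gave 1393 to 2283 higher and 640 to 1416 lower. In neurites against somas the count of lower RNAs was 7 on total counts, 0 and 2 under the stricter thresholds and 1 to 5 without libraries in Ctrl neurons, and 2 and 3 and then 3 to 6 in MG132 neurons. In Ctrl neurons all genes called lower numbered 2741 on total counts, 48 and 181 under these thresholds and 98 to 613 without libraries. In MG132 neurons they numbered 4340, 72 and 295, and 264 to 748. Leaving a replicate number out of all groups at once was chosen after seeing the data.

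Among estimates near 0, Meg3 in somas was at -0.023 with DESeq2 or its size factors, at -0.016 with the replicate block, at -0.068 with at least 10 counts, at -0.18 without replicate 1 in all groups, and at -0.21 to 0.19 without single libraries. Rian in neurites was at 0.020 without mitochondrial genes and the most counted gene in TMM, at 0.057 without a filter and at -0.31 to 0.22 without single libraries, and Snhg11 at -1.14 to 0.033. The interaction of Malat1 was at 0.016 and 0.032 under those 2 settings, at 0.31, 0.10 and -0.56 without replicate 1, 2 or 3 in all groups and at -0.22 to 0.32 without single libraries. That of Neat1 was at 0.0028 without replicate 1 in all groups and at -0.42 to 0.12 without single libraries, that of Kcnq1ot1 at -0.88 to 0.20 and that of Snhg11 at -0.74 to 0.43.

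Over all genes, total counts called 1071 higher and 1039 lower in MG132 somas (2203 and 1694 with TMM) and 937 higher and 1336 lower in MG132 neurites (2085 and 1738). Lower genes in Ctrl neurites against somas numbered 659, 1172 with DESeq2 and 1316 with the block, and in MG132 neurons 901 and 1660 with the block. With 3 libraries per group, the median SE was 0.36 for MG132 in somas and 0.51 for the interaction.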
